A study of Mus musculus with 11 samples.

Results

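The 10 genes described here belong to the STAT3 signaling pathway or are targets of it, and were chosen by name from the count table. They are Stat3, Jak1, Jak2, Il6st, Osmr, Lifr, Il6ra, Socs3, Lcn2 and Chi3l1. All 10 were listed among the 22609 genes of the table, and all 10 had enough counts to be tested, as did 17557 genes in total. Polyadenylated RNA had been sequenced in bulk from 11 libraries of mouse tissue labelled cerebellar hemisphere, on a mixed C57BL/6J and 129 background and from both sexes. NFKO mice (3 libraries) carried Pcp2-Cre with floxed Nfasc, which encodes neurofascin and its NF186 form. AnkGKO mice (2 libraries) carried Pcp2-Cre with floxed Ank3, which encodes Ankyrin G, and DKO mice (3 libraries) carried Pcp2-Cre with both floxed genes. The 3 control libraries carried floxed alleles, without Cre in the methods and with Pcp2-Cre in another place of the study. The labels give postnatal day 30 in one field and day 32 in another. Pcp2-Cre is active mainly in Purkinje cells, which are a small part of the tissue.

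STAT3 is a latent transcription factor of the cytoplasm. Cytokines of the interleukin 6 family bind a receptor of their own and the shared subunit gp130, encoded by Il6st. The kinases JAK1 and JAK2, held on the receptor tails, then phosphorylate STAT3, which forms dimers, enters the nucleus and binds sites of the form TTCNNNGAA. Its targets include Socs3, whose product shuts the receptor down. In the brain and spinal cord the pathway is known for its part in the reactive response of astrocytes, in which Lcn2 (lipocalin 2, an iron-siderophore carrier) and Chi3l1 (a secreted chitinase-like protein) can be induced. RNA levels do not report the phosphorylation of STAT3, which was not measured in these libraries.

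The promoters are shown for 3 of the genes, a feedback target, an inducible target and Stat3 itself, to show which of them carry the STAT3 site. Each sequence is the 250 bases before the RefSeq start on GRCm38.p6, read 5′ to 3′ on the strand of the gene, and capitals mark the letters TTCNNNGAA, which read the same on both strands.
Socs3, chr11:117969367-117969616, minus strand: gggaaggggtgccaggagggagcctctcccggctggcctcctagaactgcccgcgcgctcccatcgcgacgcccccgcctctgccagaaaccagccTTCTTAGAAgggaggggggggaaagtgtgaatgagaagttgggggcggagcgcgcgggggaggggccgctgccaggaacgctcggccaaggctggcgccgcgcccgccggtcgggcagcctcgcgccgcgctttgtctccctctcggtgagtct
Lcn2, chr2:32387740-32387989, minus strand: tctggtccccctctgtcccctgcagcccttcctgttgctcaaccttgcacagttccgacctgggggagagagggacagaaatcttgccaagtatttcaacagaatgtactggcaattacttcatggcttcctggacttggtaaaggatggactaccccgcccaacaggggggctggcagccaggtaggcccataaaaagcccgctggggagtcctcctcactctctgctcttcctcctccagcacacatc
Stat3, chr11:100939541-100939790, minus strand: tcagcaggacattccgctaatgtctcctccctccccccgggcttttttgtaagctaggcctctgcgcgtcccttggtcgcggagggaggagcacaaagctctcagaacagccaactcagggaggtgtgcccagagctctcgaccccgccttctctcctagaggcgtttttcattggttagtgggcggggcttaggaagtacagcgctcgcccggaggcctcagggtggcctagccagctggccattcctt
RefSeq start windows, running from 250 bases before to 50 bases after a start, were at hand for 9 of the 10 genes, in 10 windows. The letters TTCTTAGAA stood in the Socs3 window, 154 bases before the start, and in none of the others. Among all 27025 genes with windows, 9.55% held the motif (8.30% of 32851 windows), so that 1 of 9 genes (11.1%) was near the background. A match is a description of letters and no evidence of binding.

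Libraries held 38890851 to 55822361 counts in genes, and 3 counts, taken as the floor, equalled 0.0537 to 0.0771 CPM, the unit of all levels given here, which is scaled to library size by TMM. Ank3 was at 363 ± 11.1 CPM in control and fell to 178 ± 31.4 in AnkGKO (n = 2) and 173 ± 12.7 in DKO (SD, n = 3), with log2 fold changes of -1.03 and -1.07 (adjusted p = 0.00108 and 0.000461, edgeR). Nfasc was at 690 ± 28.4 CPM in control, 653 ± 41.8 in NFKO and 589 ± 26.5 in DKO (SD, n = 3 each), and neither difference passed the adjusted threshold (adjusted p = 0.969 and 0.619, edgeR). Markers of the labelled tissue were low in most libraries. Caudal Hox genes, which are silent in cerebellum, summed to more CPM than 8 granule cell genes in 9 of 11 libraries, and in those 9 the Purkinje cell gene Pcp2 was at 0.0929 to 2.14 CPM. The exceptions were control replicate 1 and NFKO replicate 1. Their Hox sums, 495 and 544 CPM, lay within the range of the other 9 libraries (374 to 573 CPM). All 11 libraries thus held RNA of genes that are silent in cerebellum. The AnkGKO and DKO libraries were all among the 9 with little Pcp2, and which cells the fall of Ank3 came from was not tested. For a marker sum that differs between genotypes, fewer cells of a type and less RNA per cell cannot be told apart in bulk tissue.

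The 10 genes spanned a wide range of levels in control tissue. Compared per kilobase of the canonical transcript, Jak1 was the most abundant at 46.6 ± 3.27 CPM per kilobase (SD, n = 3). It was followed by Stat3 (25.0 ± 0.240), Chi3l1 (25.0 ± 1.79), Il6st (20.05 ± 0.923), Lifr (12.0 ± 1.60) and Jak2 (9.41 ± 0.541). The control libraries of Stat3 and Chi3l1 overlapped, as did no other neighbours among these 6. The remaining genes lay far lower, with Osmr at 1.55 ± 0.214, Lcn2 at 1.24 ± 0.204, Socs3 at 0.922 ± 0.147 and Il6ra at 0.667 ± 0.140 CPM per kilobase, and of these only Socs3 and Il6ra did not overlap as neighbours. Among the receptor chains, RNA for Il6st and Lifr was thus more abundant than RNA for Osmr and Il6ra, and Lifr also lay above the kinase Jak2. Over all 11 libraries the coefficient of variation was 7.64% for Jak1 and 7.67% for Jak2, 11.6% to 19.6% for the other genes except Lcn2, and 89.4% for Lcn2.

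Whether the knockouts changed the pathway was asked with edgeR's quasi-likelihood test over all 11 libraries. A gene was called at an adjusted p-value (Benjamini-Hochberg over 17557 genes) under 0.05 with a log2 fold change of 0.6 or more in either direction. None of the 10 genes was called against control in NFKO, where 0.365% of all genes were called, in AnkGKO (0.165%) or in DKO (0.0228%). At an unadjusted p under 0.05, 3 of 10 were higher in NFKO (Chi3l1, Il6st and Lcn2), against 4.48% of all genes. In AnkGKO, 1 was higher (Stat3, 3.21% of all genes) and 1 was lower (Chi3l1, 2.18%). In DKO, 1 was higher (Stat3, 4.04%). The log2 fold change lay above 0 for 7 genes in NFKO, 9 in AnkGKO and 10 in DKO, against 48.2%, 48.7% and 49.8% of all genes, although Il6st in DKO was at 0.0015 and changed sign with the filter. The 3 medians were 0.15, 0.12 and 0.21 on the log2 scale, beside medians of -0.00495, -0.00505 and -0.00062 over all genes. The 3 knockout comparisons share the control libraries and are not independent of each other. The members were chosen with earlier results of these data known, so their shares and medians beside all genes are a description and no test.

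**Figure D1:**
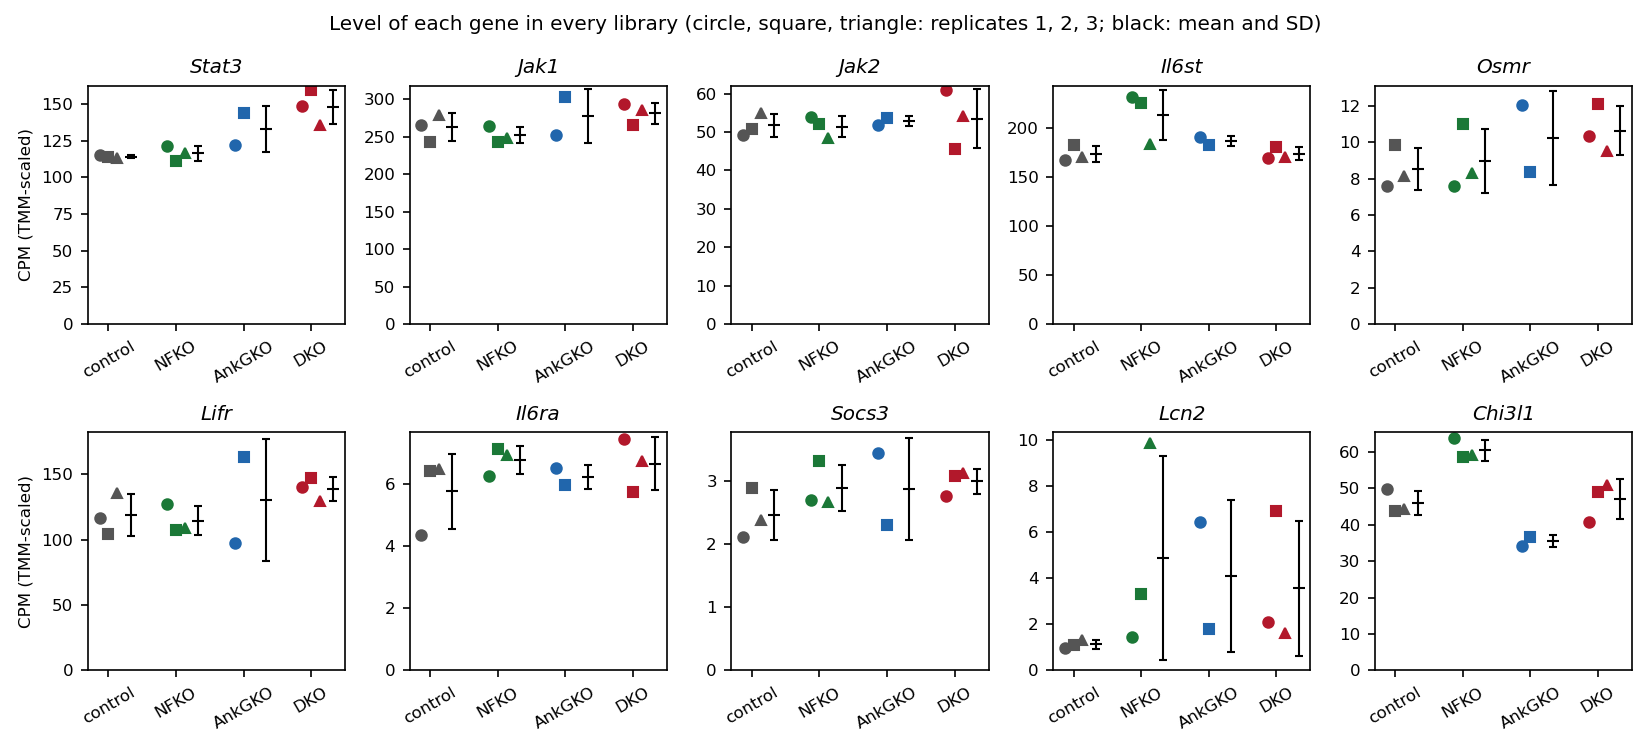
Level of each of the 10 genes in CPM (TMM-scaled, linear axes from 0) in every library, by genotype. Symbols are replicates 1 to 3, and the black mark with its bar is the mean and SD. The 3 DKO libraries of Stat3 (136 to 159 CPM) lie above the 3 controls (113 to 115), Chi3l1 lies above control in NFKO and below it in AnkGKO, and Lcn2 spreads widely in each knockout.

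With DESeq2, the tool of the authors, in place of edgeR, the adjusted p passed 0.05 for Chi3l1 and Il6st in NFKO, for Chi3l1 in AnkGKO and for Stat3 in DKO. None of these reached the fold threshold of 0.6, so that 0 of 10 were called by DESeq2 as well, while it called 0.906%, 0.581% and 0.251% of all genes. Between knockouts, its adjusted p also passed for Stat3, Chi3l1 and Il6st in DKO against NFKO, for Chi3l1 in DKO against AnkGKO (0.00745) and for Il6st in the interaction (0.0438), again short of the fold threshold.

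Stat3 (ENSMUSG00000004040, chromosome 11 from 100775924 to 100830450, minus strand, GRCm39), the transducer itself, was at 115, 114 and 113 CPM in replicates 1, 2 and 3 of control. It was at 121, 111 and 116 CPM in NFKO. The AnkGKO libraries were at 122 and 144 CPM, and the DKO libraries at 149, 159 and 136 CPM. All 3 DKO and both AnkGKO libraries lay above all controls, as did 7.65% and 11.7% of genes in these comparisons, whereas NFKO overlapped control. The fold change in DKO was 1.30 (95% interval 1.15 to 1.46), a log2 fold change of 0.37 (SE 0.077). With an unadjusted p of 0.000409 it ranked 17 of 17557 genes, yet the adjusted p was 0.423 with edgeR and 0.000916 with DESeq2. In AnkGKO the log2 fold change was 0.22 (SE 0.085, adjusted p = 0.786), and 0.09 without replicate 2. In NFKO it was 0.026 (SE 0.077, 95% interval -0.14 to 0.19). DKO also exceeded NFKO in every library (9.32% of genes), by 0.35 on the log2 scale (SE 0.077, adjusted p = 0.0647 with edgeR and 0.000357 with DESeq2), where 0.615% of all genes were called. Between DKO and AnkGKO the difference was 0.16 (95% interval -0.032 to 0.34), and the libraries overlapped.

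Summed astrocyte markers, which include the listed STAT3 target Gfap, moved alongside Stat3. The summed level of 8 astrocyte genes was 8194 to 8653 CPM in control, 7667 to 8878 in NFKO, 10284 to 10850 in AnkGKO and 9104 to 9536 in DKO. It lay above all controls in both genotypes in which Stat3 did, and none of the 8 genes was called against control. Taken singly, 4 of the 8 had every library above control in AnkGKO (11.7% of all genes) and 1 in DKO (7.65%). The order was not the same, as the sum was highest in AnkGKO and Stat3 was highest in DKO. The microglia sum was also high in AnkGKO, where 8 genes summed to 364 to 393 CPM against 285 to 342 in control. Of the 8, 6 had a log2 fold change above 0. In 3 every library lay above control (11.7% of all genes), and in 1 every library lay below. In either direction, 4 reached an unadjusted p under 0.05 (3.21% of all genes were higher and 2.18% lower), and none was called. In DKO the microglia sum overlapped control (297 to 389 CPM). The part of astrocyte and microglia abundance in the level of Stat3 was not tested.

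Chi3l1 (ENSMUSG00000064246, chromosome 1 from 134109889 to 134117919, plus strand, GRCm39) was the gene with the clearest difference among genotypes. It was at 49.8, 43.9 and 44.3 CPM in control and at 63.8, 58.6 and 59.2 CPM in NFKO. It was at 34.3 and 36.6 CPM in AnkGKO and at 40.8, 49.1 and 51.0 CPM in DKO. Every NFKO library thus lay above, and every AnkGKO library below, all controls, while DKO overlapped control. Such a split, counted in either direction, was shared by 0.723% of all genes. The log2 fold changes against control were 0.40 in NFKO (SE 0.088, adjusted p = 0.0960 with edgeR and 0.000798 with DESeq2), -0.37 in AnkGKO (SE 0.0998, adjusted p = 0.341 and 0.0224) and 0.032 in DKO (95% interval -0.16 to 0.22). In a single test for any difference among the 4 genotypes, Chi3l1 passed with an adjusted p of 0.0121 (edgeR), as did 0.723% of all genes and none of the other 9 members. This call rested on few libraries. The adjusted p was 0.0624 without NFKO replicate 1 and 0.0547 with replicate number as a block. It was 0.0679 without control replicate 1 and NFKO replicate 1 together. Leaving out an AnkGKO library leaves 1 in that genotype, with no spread of its own, so the call cannot be checked there.

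Against the other mutants, Chi3l1 in DKO was lower than in NFKO (-0.36, SE 0.088, adjusted p = 0.0917 with edgeR and 0.00188 with DESeq2) and lay above AnkGKO in every library, as did 12.4% of genes (0.41, SE 0.0998, adjusted p = 0.270), where 0.171% of all genes were called. NFKO exceeded AnkGKO by 0.77 (SE 0.101, adjusted p = 0.00514), in a comparison chosen after these values had been seen and in which 0.404% of all genes were called. The log2 difference was 0.73 or 0.82 without AnkGKO replicate 1 or 2. Either fit leaves 1 library in that genotype, so the call cannot be checked there. The interaction of the knockouts, which asks if DKO departs from the sum of both single effects, was 0.0093 on the log2 scale (95% interval -0.28 to 0.30). The gene lies 1.44 Mb from Nfasc on the same chromosome. In NFKO, 7 Schwann cell genes summed to 299.9 to 334 CPM against 56.9 to 172 in control, and 8 meningeal fibroblast genes to 514 to 1599 against 153 to 467, each without overlap. Their part in the NFKO level of Chi3l1, and that of the chromosomal neighbourhood of Nfasc, was not tested. In AnkGKO these sums overlapped control (59.0 to 224 and 161 to 414 CPM). The AnkGKO libraries differed from all controls in 3 other sums, with 8 choroid plexus genes lower (7.49 to 10.5 CPM against 10.6 to 17.7) and the astrocyte and microglia sums given for Stat3 higher. The part of these in the AnkGKO level of Chi3l1 was not tested.

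**Figure D2:**
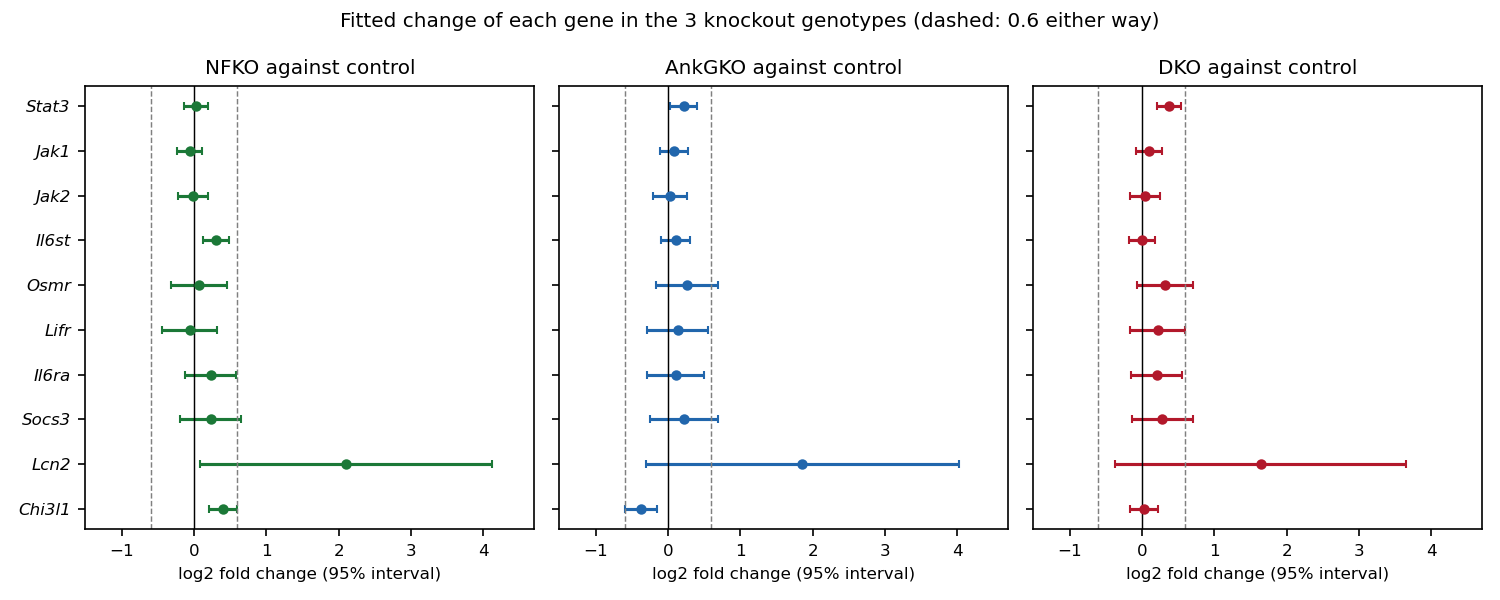
Log2 fold change of each gene against control from the edgeR fit (points) with its 95% interval (bars), for NFKO, AnkGKO and DKO. Dashed lines stand at 0.6 in either direction. Intervals clear of 0 belong to Chi3l1, Il6st and Lcn2 in NFKO, to Stat3 and Chi3l1 in AnkGKO and to Stat3 in DKO, and the interval of Lcn2 spans several log2 units.

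Among the receptors, Il6st, the shared gp130 subunit, stood out in NFKO. It was at 168, 183 and 171 CPM in control and at 232, 226 and 184 CPM in NFKO. The AnkGKO libraries were at 191 and 183 CPM and the DKO libraries at 170.0, 181 and 171 CPM. All NFKO libraries lay above all controls (7.42% of genes), though replicate 3 only by a narrow margin, and DKO overlapped control. Both AnkGKO libraries also lay above all controls (11.7% of genes), the lower at 183.3 CPM against a highest control of 183.0 CPM. The log2 fold change in NFKO was 0.30 (SE 0.082, 95% interval 0.12 to 0.48, adjusted p = 0.271 with edgeR and 0.0229 with DESeq2). It was 0.0015 in DKO (95% interval -0.18 to 0.18) and 0.10 in AnkGKO (SE 0.092). DKO was lower than NFKO by -0.30 (SE 0.082, adjusted p = 0.131 with edgeR and 0.0112 with DESeq2), and the interaction was -0.40 (SE 0.123, unadjusted p = 0.00703, adjusted p = 0.255), in a comparison in which 0.530% of all genes were called. Without NFKO replicate 3, the adjusted p was 0.0288 for NFKO against control, 0.0178 for DKO against NFKO and 0.0395 for the interaction, each short of the fold threshold. The Schwann cell and meningeal sums given for Chi3l1 were also high in NFKO, and NFKO replicate 2 had the highest meningeal sum (1599 CPM) while NFKO replicate 1, with the highest Il6st, had the lowest of that genotype (514 CPM). Their part in the level of Il6st was not tested.

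For the ligand-binding partners of gp130, every knockout genotype overlapped control. Lifr, the leukemia inhibitory factor receptor, was at 117, 105 and 136 CPM in control and at 127, 107 and 109 CPM in NFKO. It was at 97.5 and 164 CPM in AnkGKO and at 140.4, 147 and 129 CPM in DKO. The AnkGKO pair held both the lowest and the highest value of all 11 libraries, and the log2 fold changes against control were -0.057 (SE 0.170), 0.13 (SE 0.190) and 0.22 (SE 0.170). Osmr, the oncostatin M receptor, ranged from 7.59 to 9.84 CPM in control, from 7.61 to 10.98 in NFKO, from 8.39 to 12.05 in AnkGKO and from 9.50 to 12.1 in DKO. Its largest log2 fold change was 0.32 in DKO (95% interval -0.071 to 0.71). Il6ra, the interleukin 6 receptor chain, ranged from 4.37 to 7.44 CPM over all libraries, with log2 fold changes of 0.23, 0.11 and 0.20 in NFKO, AnkGKO and DKO (SE 0.162 to 0.181).

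Of the kinases, Jak1 ranged from 243 to 279 CPM in control, from 243 to 264 in NFKO, from 253 to 303 in AnkGKO and from 265 to 293 in DKO. Its log2 fold changes were -0.060, 0.082 and 0.099, and the intervals reached from -0.23 to 0.28. Jak2 was at 45.5 to 60.8 CPM over all libraries, both extremes being DKO libraries, with log2 fold changes of -0.0088, 0.029 and 0.049. The intervals of Jak2 reached from -0.22 to 0.26. Each interval for the kinases thus left out a change of 0.6 in either direction.

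Socs3, the feedback inhibitor whose promoter window holds the STAT3 motif, was at 2.11, 2.88 and 2.38 CPM in control. It was at 2.697, 3.31 and 2.66 CPM in NFKO, at 3.45 and 2.30 CPM in AnkGKO and at 2.75, 3.08 and 3.13 CPM in DKO. The counts behind these values were 81 to 172 a library. Each knockout genotype overlapped control, and the log2 fold changes of 0.23, 0.23 and 0.28 had standard errors of 0.193, 0.215 and 0.194. The 95% interval in DKO, from -0.14 to 0.70, did not exclude a change of 0.6.

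Lcn2 (ENSMUSG00000026822, chromosome 2 from 32274645 to 32278264, minus strand, GRCm39) differed most between libraries of the same genotype. It was at 0.962, 1.11 and 1.33 CPM in control and at 1.43, 3.31 and 9.85 CPM in NFKO. It was at 6.44 and 1.78 CPM in AnkGKO and at 2.12, 6.91 and 1.64 CPM in DKO. All 8 knockout libraries lay above all 3 controls, as did 0.632% of all genes, and Lcn2 was the only member to do so. In each knockout genotype 1 library was far above the others. The log2 fold changes were 2.10 in NFKO (SE 0.876, adjusted p = 0.629), 1.86 in AnkGKO (SE 0.940, adjusted p = 0.957) and 1.64 in DKO (SE 0.874, adjusted p = 0.666), so that none passed the test. They were 1.07 without NFKO replicate 3, 0.64 without AnkGKO replicate 1 and 0.72 without DKO replicate 2. Lcn2 is also a granule protein of neutrophils. The 6 blood genes tested, all of them neutrophil genes, summed to 4.86 to 18.0 CPM in control, 14.7 to 31.4 in NFKO, 7.54 to 12.98 in AnkGKO and 5.37 to 101 in DKO. The DKO library with the highest Lcn2 was also that with 101 CPM of blood genes. The highest of all, NFKO replicate 3 at 9.85 CPM of Lcn2, had 29.95 CPM, above all controls, and NFKO replicate 2 had 31.4. The AnkGKO library at 6.44 CPM of Lcn2 had 12.98 CPM of blood genes, within the control range. The hemoglobin gene Hba-a1 was listed at 0 in every library, but reads it shares with its near-identical copy Hba-a2 can be lost where only unique reads are counted, so that this 0 does not measure blood. The part of blood in the level of Lcn2 was not tested.

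**Figure D3:**
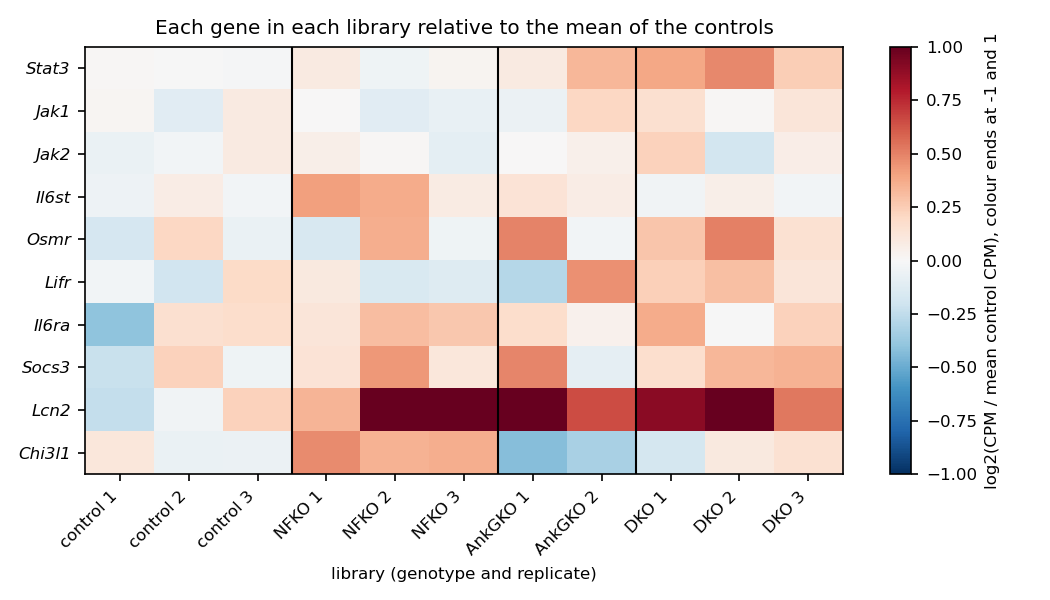
Each gene (rows) in each library (columns) as log2 of its CPM over the mean control CPM, with colour ending at -1 and 1. Lcn2 is positive in all 8 knockout libraries, Chi3l1 is positive in NFKO and negative in AnkGKO, and Stat3 is positive in the 3 DKO libraries.

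**Figure D4:**
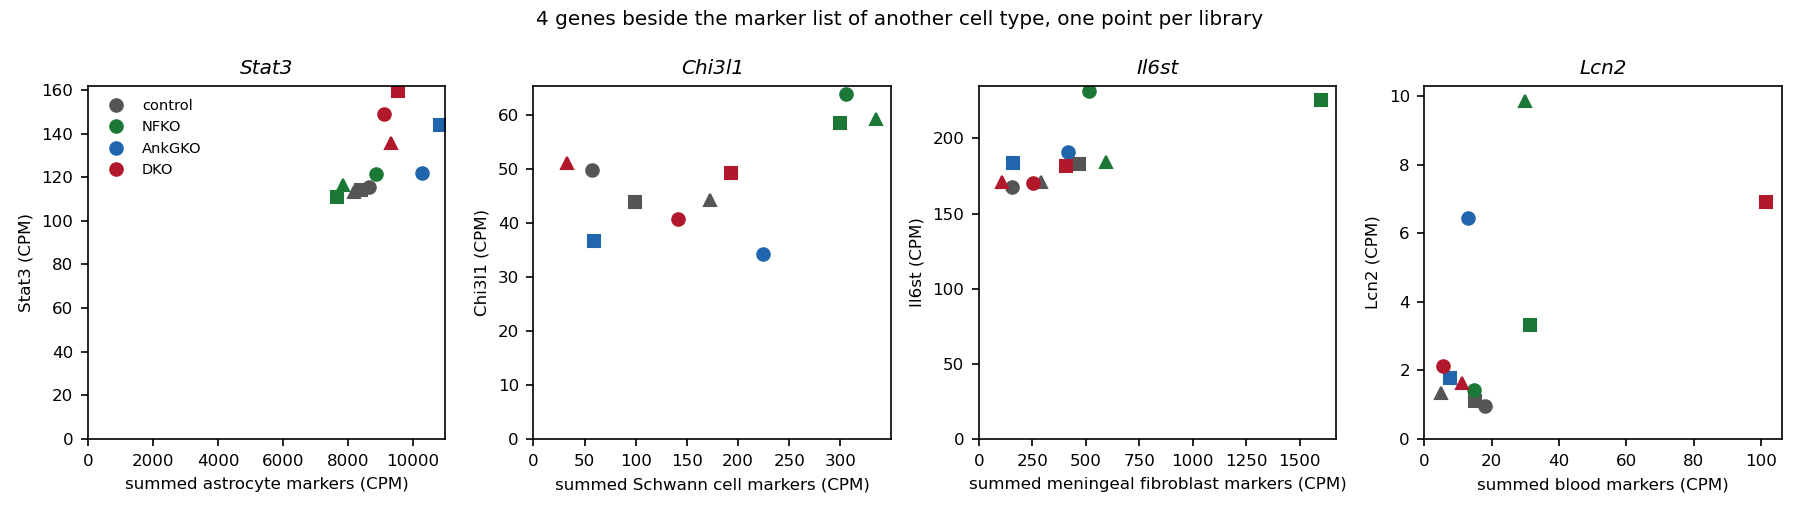
Stat3, Chi3l1, Il6st and Lcn2 (vertical axes, CPM) against the summed CPM of astrocyte, Schwann cell, meningeal fibroblast and blood markers (horizontal axes), a point for each library, colour for genotype and symbol for replicate. The DKO and AnkGKO libraries lie to the right of control in the astrocyte panel, and the NFKO libraries to the right of control in the Schwann cell and meningeal panels.

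How the members varied with Stat3 from library to library was asked with log2 CPM over the 11 libraries, by permutation tests (two-sided, 100000 resamples) with adjustment over 9 relations. Lifr was closest to Stat3 (Pearson r = 0.73, permutation p = 0.0126, adjusted p = 0.113; Spearman rho = 0.61, permutation p = 0.0507, adjusted p = 0.314). Without the 2 libraries farthest from the median of Stat3, which were DKO replicates 1 and 2, r was 0.67. With the mean of each genotype subtracted, r was 0.77, and an exact permutation test over all 432 orders of the libraries within genotypes gave p = 0.0347 (adjusted p = 0.313), which did not pass. For Jak1, r was 0.64 (permutation p = 0.0366, adjusted p = 0.165; rho = 0.57, permutation p = 0.0698, adjusted p = 0.314), 0.79 without the same 2 libraries and 0.41 within genotypes. The other 7 members ranged from r = -0.32 for Chi3l1 to 0.36 for Osmr, and the targets Socs3 and Lcn2 were at 0.096 and 0.21. Within genotypes r was -0.65 for Socs3 (exact permutation p = 0.127, adjusted p = 0.382), -0.42 for Il6ra and -0.36 for Osmr, and the other 4 lay between -0.22 for Jak2 and 0.15 for Chi3l1. None of the 9 relations passed the adjusted threshold, either over the libraries as measured or within genotypes.

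The genes whose levels ran closest to each member, among 13900 genes with a mean of at least 1 CPM, are given as a description by Pearson r over the 11 libraries. Stat3 ran closest to Hspb8 (0.93), a small heat shock protein, and Ehd4 (0.92). Chi3l1 ran with Itgb7 (0.94), an integrin chain of leukocytes, and AW112010 (0.92). Il6st ran with Wls (0.96), which escorts Wnt proteins to the cell surface, and Calu (0.94). Lcn2 ran with Nfam1 (0.91), a receptor of leukocytes, and Lrg1 (0.87), an acute-phase glycoprotein. Socs3 ran with 3110040N11Rik (0.92) and Csf2rb2 (0.92). Osmr ran with Capg (0.96) and Lrrc3 (0.91), Lifr with Fgf1 (0.95) and Tns1 (0.95), and Il6ra with Pde1a (0.94) and Nucb2 (0.90). Jak1 ran with Ctif and Rab6b (0.97 each), and Jak2 with Akap11 (0.98) and Braf (0.97). The closest of so many genes reach a high r in any set of 11 libraries, so no test was made.

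The rest of the pathway was read from 5 lists of 70 genes, of which 69 were tested. They hold 10 cytokines that signal through gp130, 12 other receptors, 8 other JAK and STAT genes, 15 negative regulators and 25 other STAT3 targets. Of the 69 genes, 1 was called higher in NFKO, 1 higher in AnkGKO and 0 in DKO against control, and the called gene was the target Serpina3n both times. The shares called over all genes were the 0.365%, 0.165% and 0.0228% given above, and the counts with DESeq2 were also 1, 1 and 0. At an unadjusted p under 0.05, 6 of 69 were higher in NFKO (8.70%, against 4.48% of all genes) and 1 lower (1.45% against 3.22%). In AnkGKO 6 were higher (8.70% against 3.21%) and 1 lower (1.45% against 2.18%), and in DKO 7 were higher (10.1% against 4.04%) and 3 lower (4.35% against 3.74%). The median log2 fold change of the 69 genes was 0.099, 0.047 and 0.096, beside the medians near 0 over all genes given for the members. The lists, too, were chosen with earlier results known, so these shares and medians are a description and no test. In DKO against NFKO edgeR called 1 gene, Serpina3n, whereas DESeq2 called 3, adding Gfap and Cd44, with 2.38% of all genes called by DESeq2. These 2 targets are named because the tools differed, after their values had been seen. Gfap, the intermediate filament of astrocytes and also one of the astrocyte markers, was at 1477 ± 71.5 CPM in NFKO and 2423 ± 557 in DKO (log2 difference 0.71, adjusted p = 0.0776 with edgeR and 0.000120 with DESeq2), beside 1887 ± 284 in control (SD, n = 3 each). Cd44, a hyaluronan receptor, was at 16.1 ± 1.83 CPM in NFKO and 26.3 ± 7.62 in DKO (0.71, adjusted p = 0.118 and 0.00200), beside 18.8 ± 0.888 in control (SD, n = 3 each).

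Serpina3n, an acute-phase serine protease inhibitor secreted by reactive astrocytes, was at 73.0 ± 2.65 CPM in control and rose to 239 ± 23.4 in NFKO (SD, n = 3 each). The log2 fold change was 1.71 (adjusted p = 0.000137, edgeR). It rose to 227 ± 61.4 CPM in AnkGKO (n = 2), by 1.64 (adjusted p = 0.000973). In DKO it was at 92.2 ± 9.56 CPM (n = 3), and the log2 fold change of 0.34 did not pass (adjusted p = 0.619), although all 3 libraries lay above control. DKO was lower than NFKO by -1.38 and lower than AnkGKO by -1.30, and both were called. With only the libraries compared in the fit, the AnkGKO and the DKO against AnkGKO calls were lost (adjusted p = 0.0557 and 0.0785), and the latter also with Xist as a covariate (0.144). Side by side, Serpina3n was highest in the single knockouts, whereas Stat3 was highest in DKO.

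The cytokines were scarce, with the highest median level among the 10 at 1.71 CPM, that of Ctf1. Il6 had 0 to 8 counts a library and was at or under the floor of 3 counts in 7 of 11 libraries, and Il27 was so in 9. Osm, the ligand of Osmr, had 2 to 15 counts. Ebi3, a subunit of interleukins 27 and 35, was at 0.494 to 0.833 CPM in control and lay above control in every library of each knockout, at 0.842 to 1.19 CPM in NFKO (log2 fold change 0.57, adjusted p = 0.662), 0.956 and 1.24 CPM in AnkGKO (0.65, adjusted p = 0.922) and 0.863 to 1.16 CPM in DKO (0.59, adjusted p = 0.639). Of the receptors, Il21r was at 0.832 to 1.55 CPM in control and 2.22 to 2.41 in AnkGKO (0.84, adjusted p = 0.839), with log2 fold changes of 0.66 in NFKO and 0.51 in DKO, where it overlapped control. Il27ra ranged from 0.405 to 0.544 CPM in control and from 0.650 to 1.21 in NFKO (0.94, adjusted p = 0.656), with 0.51 in AnkGKO, also above control, and 0.022 in DKO. Among the STAT genes Stat6 had a mean of 10.6 ± 2.27 CPM in control and of 14.5 ± 1.89 in NFKO (0.45, adjusted p = 0.580), and the kinase Tyk2 at 20.4 ± 1.01 in control and 17.4 ± 1.87 in DKO (-0.23, adjusted p = 0.619; SD, n = 3 each).

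Of the negative regulators, Pias3, an inhibitor of STAT3 binding to DNA, was at 25.3 ± 1.37 CPM in control and 29.2 ± 1.70 in DKO (log2 fold change 0.21, adjusted p = 0.609). Ptpn2, a phosphatase that acts on JAK and STAT proteins, was at 16.6 ± 3.08 CPM in control and 13.5 ± 1.37 in DKO (-0.30, adjusted p = 0.639; SD, n = 3 each). Among the targets Il4ra was at 11.7 ± 1.47 CPM in control and 16.2 ± 1.62 in DKO (SD, n = 3 each), with all 3 DKO libraries above control (0.48, adjusted p = 0.528). None of these genes was called. The motif TTCNNNGAA stood in the start window of 5 of the 21 other targets that had one (23.8%), against 9.55% of all genes. It stood in 0 of 6 cytokine genes with a window, 1 of 8 other receptors (12.5%), 0 of 7 other JAK and STAT genes and 1 of 8 negative regulators (12.5%).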

How the data were processed

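Per the labels and the methods of the study, polyadenylated RNA from 11 libraries (control 3, NFKO 3, AnkGKO 2, DKO 3) was sequenced. The authors trimmed reads with Trimmomatic 0.39, aligned them with STAR 2.7.11a to GRCm39 and deposited raw counts per gene. The methods name the counts of STAR, while the 5 summary lines of the deposited count table have the form another counter writes; these lines (42.7 to 43.8% of reads, mostly not unique) were left out. The second table the authors deposited holds normalized signal, the counts divided by a size factor (0.815 to 1.16) for each library. The labels give single-end and the methods paired-end reads. With 38890851 to 55822361 counts a library, counting error was small beside the spread between libraries, except near the floor.

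Genes that reached 10 counts summed over the libraries were tested with edgeR 4.0.16 in R 4.3.3 (TMM, robust quasi-likelihood fit over the 4 genotypes, Benjamini-Hochberg). DESeq2 1.42.0 with a local dispersion fit was an alternative, as were its size factors in edgeR, edgeR's filter, no filter, replicate number as a block, Xist as a covariate, only the libraries compared, other fold thresholds, each library left out in turn, and control replicate 1 with NFKO replicate 1 left out together. NFKO against AnkGKO was added after seeing the data. Standard errors follow from the F statistic. Both tools were tested on simulated data. Gene positions and lengths came from GENCODE on GRCm39 and promoters from RefSeq on GRCm38.p6.

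The 10 members and all lists were chosen with earlier results of these data known. Named besides the members are list genes called by edgeR in any comparison, the 2 of each list with the smallest p against control, the 2 genes most correlated with each member, and Ank3 and Nfasc. Markers of other cell types served as sums. Control and NFKO libraries of the same number shared their deviations from the genotype means (every r = 0.175 to 0.363, highest for replicate 1). NFKO and DKO did so too (0.0499 to 0.350). Control and DKO did not (r = -0.0928 to 0.19), and AnkGKO ran against control (-0.276 to -0.222). Subtracting genotype means pushes other numbers to a negative r, and the labels do not say what a number stands for. Whether the numbers pair libraries was therefore not settled, and the main test does not use them. Replicates differed beyond sampling noise (chi-square per gene 19.3 to 41.4). The methods give 3 AnkGKO mice, the labels 2 libraries.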

Additional observations from a re-analysis of the deposited data

Results flagged for a closer look

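Chi3l1 was flagged because the same contrast, knockout against control, took opposite directions in 2 genotypes. Its log2 fold change was 0.40 in NFKO, with 3 of 3 libraries above all controls, and -0.37 in AnkGKO, with 2 of 2 libraries below all controls. The difference was then tested as NFKO against AnkGKO, a comparison chosen after the values had been seen. The log2 fold change was 0.77 (SE 0.101, 95% interval 0.55 to 0.99, adjusted p = 0.00514, edgeR), and 0.404% of all genes were called in this comparison. It was 0.73 to 0.82 with each NFKO or AnkGKO library left out in turn. The adjusted p was 0.0118 to 0.0206 without an NFKO library. A fit without an AnkGKO library leaves 1 in that genotype, with no spread of its own, so the call cannot be checked there. Its cause was not tested.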

How the results depend on the processing

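No member was called in any of the 6 comparisons under any alternative run. Of 483 refits of 35 member values, 453 kept their direction, 30 changed sign, and 0 changed a call, which needs both thresholds. The adjusted p alone did cross 0.05, as given above for DESeq2 and for Il6st without NFKO replicate 3. Signs changed only for log2 fold changes below 0.3 in size. Leaving out each library in turn gave ranges across 0 in NFKO for Jak2 (-0.042 to 0.038), Lifr (-0.14 to 0.050), Osmr (-0.11 to 0.19) and Stat3 (-0.0063 to 0.048). In AnkGKO it did so for Il6ra (-0.053 to 0.20), Jak1 (-0.056 to 0.20), Jak2 (-0.0045 to 0.076), Lifr (-0.29 to 0.45), Osmr (-0.034 to 0.50) and Socs3 (-0.10 to 0.49), and in DKO for Chi3l1 (-0.032 to 0.12), Il6st (-0.031 to 0.035) and Jak2 (-0.052 to 0.15). With Xist as a covariate, AnkGKO values were -0.063 for Il6ra, -0.023 for Jak1, -0.12 for Jak2 and -0.065 for Lifr, and Il6st in DKO was at -0.00086. With control replicate 1 and NFKO replicate 1 left out together, AnkGKO values were -0.053 for Il6ra and -0.0045 for Jak2, and Il6st in DKO was at -0.024. Il6st in DKO was also at -0.0032 with edgeR's filter, -0.0057 with no filter and -0.0039 with only the libraries compared.

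The members that passed the test for any difference numbered 1 (Chi3l1), but 0 with the replicate block, 0 with control replicate 1 and NFKO replicate 1 left out together, and 0 to 2 with each library left out in turn. Il6st passed in its own right without NFKO replicate 3 (adjusted p = 0.0448). Fits without AnkGKO replicate 1 or 2 leave 1 library in that genotype, with no spread of its own, so their single values are not given. In the 6 comparisons the block changed no call of a member. It was not run for NFKO against AnkGKO. The members whose correlation with Stat3 passed numbered 0, also with genotype means subtracted, and 0 to 1 with each library left out (Lifr without control replicate 3, Jak1 without DKO replicate 2). The cause of these shifts was not tested. Genes called over the whole table numbered 159, 102, 44, 418, 99 and 314 with DESeq2 against 64, 29, 4, 108, 30 and 93 in the 6 comparisons, and 31, 13, 5, 42, 10 and 19 with Xist as a covariate. With control replicate 1 and NFKO replicate 1 left out they numbered 29 in NFKO, 59 for DKO against NFKO and 42 for the interaction. Depth limited only the genes of few counts, such as Il6. With 2 or 3 libraries a genotype, the intervals of Lcn2 span several log2 units.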
